A study of Mus musculus with 12 samples.

Results

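All usable amygdala arrays of fear-conditioned mice were set against the arrays of mice left in the home cage, to ask what was common to conditioning 2 h later, with or without prior immobilization. The conditioned side held 6 arrays: 4 from mice that went through immobilization and fear conditioning (IMO + FC 1 to 4) and 2 from mice that went through fear conditioning without immobilization (FC 2 and FC 4). The other side held 4 arrays of home-caged mice (HC 1 to 4), so 10 of the 12 arrays of the series were used. FC 1 and FC 3 were left out because under 20% of their probes were detected, which is to say had a detection p-value under 0.05. All mice were C57Bl/6J males aged 10 weeks, and the RNA came from the amygdala of both sides taken with a 1 mm punch. Per the labels the conditioned arrays were taken 2 h after conditioning. The labels used here do not give the time between immobilization and conditioning, nor whether each array held 1 animal, so any p-value here rests on the spread among samples that may be technical copies.

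Fear conditioning pairs a neutral cue with a mild foot shock, and the amygdala is the brain region where that pairing is stored. A shock, and immobilization even more, also releases corticosterone, which enters the brain and acts through the glucocorticoid receptor on genes such as Tsc22d3 and Fkbp5. Activity at synapses is followed by a short burst of immediate early genes (Fos, Arc, Egr1) whose mRNAs peak early and then decline, and then by slower effector genes. Oprl1, which the series is about, encodes the receptor of the neuropeptide nociceptin.

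On the 10 arrays between 38.97% (IMO + FC 1) and 50.7% (HC 1) of the 45281 probes were detected, against 11.69% on FC 1 and 15.94% on FC 3. IMO + FC 1 and FC 2 ranked their signals less like the rest: Spearman's rho of IMO + FC 1 with the other arrays was 0.736 to 0.758, that of FC 2 with the 8 others was 0.829 to 0.863, and those 8 had 0.871 to 0.944 among themselves. Both arrays are conditioned ones, so a part of the results is also given without them. Where no second value is given, these arrays may still matter. A probe entered the test if at least 4 of the 10 arrays detected it, and 23260 probes for 11585 named genes did so. Of the marker genes of the labelled tissue, 18 of 22 for basolateral and cortical excitatory neurons and 15 of 16 for central amygdala neurons had a tested probe, and 15 and 9 of those were detected on all 10 arrays. The markers of the neighbouring striatum were also present, with 15 of 21 tested and 13 detected on every array.

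No probe passed the threshold. In limma's test with Benjamini-Hochberg adjustment over all 23260 probes, 0 had an adjusted p under 0.05, and the lowest adjusted p was 0.999. At an unadjusted p under 0.05 there were 785 probes (3.37%), of which 332 (1.43%) were higher and 453 (1.95%) lower in conditioned arrays. If no probe differed, 1163 would be expected at this cut. The median difference over all probes, conditioned minus HC on the log2 scale, was -0.0034. The precision was limited: the 95% interval of a difference reached a median of 0.621 log2 units to either side. The groups did not overlap, meaning that every conditioned array lay on one side of every HC array, for 184 probes (0.791%). Taking the brightest probe of each gene, this held for 98 of 11585 genes (0.846%), with 45 (0.388%) higher and 53 (0.457%) lower in conditioned arrays. If the groups did not differ, such a split would be expected for a share of 0.00952 of probes. What follows describes values below the threshold, and genes chosen for a small p are described, not supported, by it.

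The 12 genes of smallest p among those higher in conditioned arrays, and the 12 among those lower, all had an adjusted p of 0.999 in the limma test. Levels are normalized log2 signals of a gene's brightest probe, and the differences of the higher genes ran from 0.69 to 1.32 and those of the lower genes from -1.77 to -0.84. Conditioned and HC arrays did not overlap for 7 of the 12 higher and 9 of the 12 lower genes. Every higher gene was detected on all 6 conditioned arrays, and 3 of them were not detected on all 4 HC arrays. Of the lower genes, 8 were not detected on every conditioned array. Without IMO + FC 1 and FC 2 the differences ran from 0.59 to 1.22 and from -1.39 to -0.82, with limma adjusted p of 0.659 to 0.804.

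**Figure D1:**
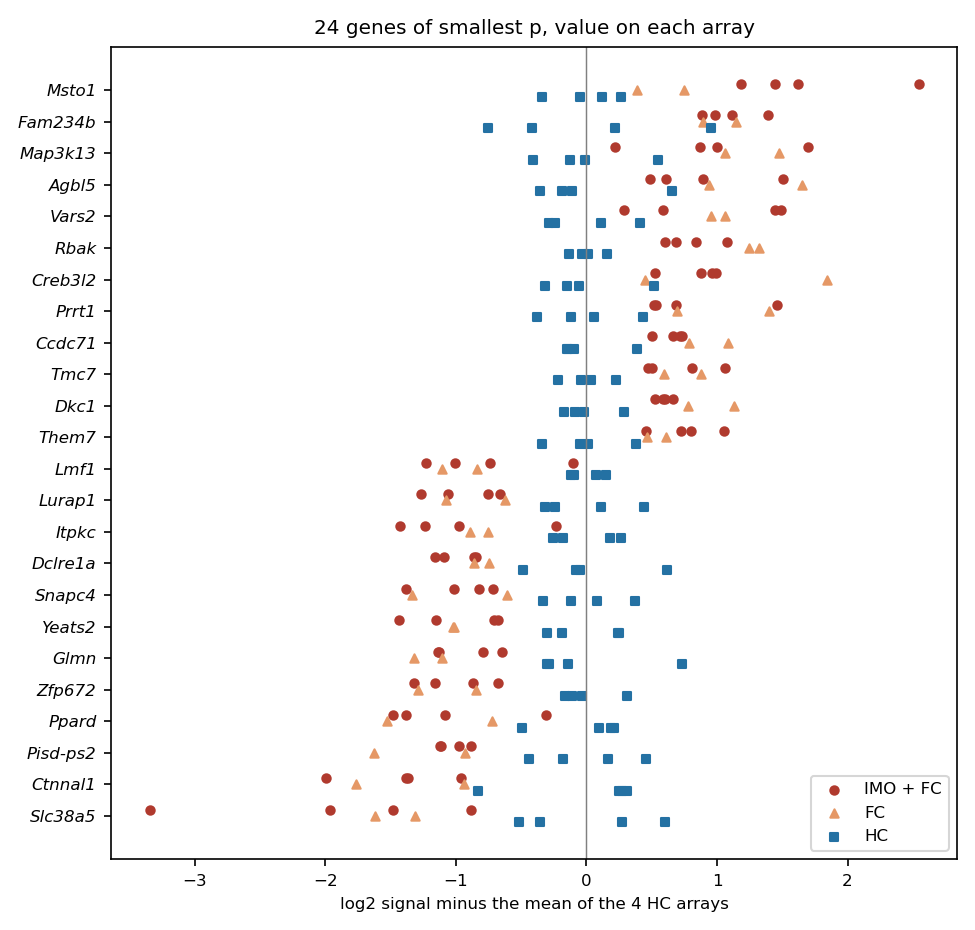
Normalized log2 signal of each array minus the mean of the 4 HC arrays (horizontal axis) for the 12 genes of smallest p higher and the 12 lower in conditioned arrays (rows), with IMO + FC arrays as circles, FC arrays as triangles and HC arrays as squares. For 16 of the 24 genes no conditioned array overlaps an HC array, and these are the genes whose p was smallest on the same arrays.

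Among the higher genes, Rbak, which encodes a KRAB zinc finger repressor that binds the retinoblastoma protein, had the smallest p. Its conditioned arrays lay between 6.989 and 7.709 with a median of 7.344, against 6.249, 6.4, 6.541 and 6.354 on the HC arrays. The difference was 0.96 ± 0.196 (SE, n = 6 and 4), or 1.95-fold, and its dimmer probe gave 0.75. The exact two-sided permutation test gave p = 0.00952, the smallest value that 210 arrangements of 6 against 4 allow. Every conditioned array exceeded every HC array, and both FC arrays (7.628 and 7.709) were above all IMO + FC arrays.

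Msto1, which encodes misato, a protein needed for the distribution and shape of mitochondria, had the largest difference of the higher genes. Its conditioned arrays ran from 5.183 to 7.343 with a median of 6.112, against 4.461, 4.753, 5.063 and 4.919 on HC arrays. The difference was 1.32 ± 0.36 (SE, n = 6 and 4), which is 2.5-fold, and 1.22 without IMO + FC 1 and FC 2. The groups did not overlap, but the gene was detected on only 1 of the 4 HC arrays. It was tested mainly through its conditioned arrays, so a higher level there is partly built in. The difference from HC was 1.70 for IMO + FC and 0.57 for FC.

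Dkc1, which encodes dyskerin, the pseudouridine synthase of small nucleolar and telomerase RNA particles, ran from 6.457 to 7.059 with a median of 6.565 on conditioned arrays, against 6.219, 5.91, 5.842 and 5.759 on HC arrays. Its difference was 0.71 ± 0.184 (SE, n = 6 and 4), with 0.35 for a dimmer probe. Prrt1, which encodes a partner protein of AMPA receptors, ran from 6.56 to 7.501 with a median of 6.731, against 5.664, 5.926, 6.472 and 6.102 on HC arrays. It has 3 tested probes, which gave 0.88, 0.76 and 1.05, and neither gene's groups overlapped for the brightest probe. Without IMO + FC 1 and FC 2 the brightest Prrt1 probe gave 0.60. Tmc7, a transmembrane channel-like gene, gave 0.72 ± 0.185 with no overlap, but -0.087 when all 12 arrays were used.

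Of the other higher genes, Vars2 (0.97 ± 0.269), the valyl-tRNA synthetase of mitochondria, and Agbl5 (1.01 ± 0.287), a carboxypeptidase that trims glutamates from tubulin, had overlapping groups. So did Map3k13 (1.05 ± 0.293), a kinase upstream of JNK, and Creb3l2 (0.94 ± 0.282), a transcription factor held in the membrane of the endoplasmic reticulum. For these 2 a dimmer probe pointed the other way, at -0.61 for Map3k13 and -0.12 for Creb3l2. Fam234b (1.07 ± 0.297) overlapped as well, while Ccdc71 (0.75 ± 0.186) and Them7 (0.69 ± 0.199) did not (SE, n = 6 and 4 throughout). Of the 4 HC arrays, Ccdc71 was detected on 3 and Them7 on 2, so Them7 too was tested mainly through its conditioned arrays.

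Among the lower genes, the zinc finger gene Zfp672 had the smallest p of all probes. Conditioned arrays lay between 6.875 and 7.518 with a median of 7.181, against 8.085, 8.165, 8.029 and 8.508 on the HC arrays. The difference was -1.03 ± 0.196 (SE, n = 6 and 4), which is 2.04-fold lower in conditioned arrays, and it was -1.01 for IMO + FC and -1.07 for FC against the same HC arrays. Every conditioned array was below every HC array, and the gene was detected on all 10. A dimmer probe gave -0.66.

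Slc38a5, which encodes a glutamine transporter of the system N type, had the largest difference of the 24 genes. Conditioned arrays ran from 4.428 (IMO + FC 1) to 6.894 with a median of 6.227, against 8.05, 7.256, 8.374 and 7.422 on HC arrays. The difference was -1.77 ± 0.426 (SE, n = 6 and 4), or 3.4-fold lower in conditioned arrays. The groups did not overlap, and without IMO + FC 1 and FC 2 the difference was -1.39.

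Yeats2, which encodes a histone-reading subunit of the ATAC acetyltransferase complex, ran from 4.465 to 5.227 on conditioned arrays with a median of 4.887, against 6.144, 5.716, 6.151 and 5.604 on HC arrays. Its 2 tested probes gave -1.0 and -1.04, and the groups did not overlap for either. These probes were detected on 3 and 2 of the 6 conditioned arrays and on all 4 HC arrays. They passed the filter only through the HC arrays, so a lower level on conditioned arrays is partly built in. Ctnnal1, which encodes the catenin-related protein alpha-catulin, ran from 4.432 to 5.485 with a median of 5.052, against 6.698, 6.677, 5.594 and 6.739 on HC arrays. Its brightest probe gave -1.40 ± 0.294 (SE, n = 6 and 4) and the other -0.082, so the probes did not give the same size. Dclre1a, a DNA crosslink repair nuclease, was detected on 0 of 6 conditioned and on 4 of 4 HC arrays. It entered the test only through the HC arrays, so a lower level on conditioned arrays is built into its being tested. It was at least 1.55-fold lower in conditioned arrays, with means of 4.666 and 5.593 and a limma adjusted p of 0.999.

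Of the other lower genes, Snapc4 (-0.98 ± 0.222), a subunit of the complex that starts small nuclear RNA transcription, and Lurap1 (-0.91 ± 0.215) had groups that did not overlap. The same was true of Pisd-ps2 (-1.11 ± 0.225), a pseudogene copy of a phosphatidylserine synthesis enzyme, whose probe may share signal with near-identical copies. Glmn (-1.02 ± 0.242), a regulator of cullin ubiquitin ligases, did not overlap either, but its other probe, of nearly the same brightness, gave 0.21. The lipid-sensing nuclear receptor Ppard (-1.09 ± 0.275), the inositol trisphosphate kinase Itpkc (-0.92 ± 0.243) and the lipase maturation factor Lmf1 (-0.84 ± 0.228) had overlapping groups (SE, n = 6 and 4 throughout). Snapc4, Lurap1 and Ppard were each detected on 3 of the 6 conditioned arrays and on all 4 HC arrays. They passed the filter only through their HC arrays, so a lower level on conditioned arrays is partly built in. Of the 24 genes 12 had more than 1 tested probe, and all tested probes pointed one way for 9 of them.

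Probes that are not the brightest of their gene add a further set of small p-values. A dimmer probe of Tomm6, a subunit of the mitochondrial import pore, averaged 6.745 on conditioned and 5.155 on HC arrays, a difference of 1.59 ± 0.377 (SE, n = 6 and 4), where the bright probe gave 0.26 ± 0.289. That dimmer probe was detected on all 6 conditioned arrays but on only 2 of the 4 HC arrays. Dimmer probes of Thsd7a (0.92) and Mast4 (1.08) had groups that did not overlap, against -0.11 and 0.19 for the brightest probes. On the lower side, dimmer probes of Cwc22 (-1.11), a splicing factor, Twnk (-1.19), the helicase of mitochondrial DNA, and Pdk1 (-1.03), a kinase that inhibits pyruvate dehydrogenase, did not overlap, while their brightest probes gave -0.11, 0.31 and 0.35. These dimmer probes were detected on 3, 5 and 1 of the 6 conditioned arrays and on all 4 HC arrays. The Cwc22 and Pdk1 probes thus passed the filter only through their HC arrays, so a lower conditioned level is partly built in. Brwd3, a bromodomain gene, has 3 tested probes, which gave -1.40 ± 0.714 (the brightest), -1.25 ± 0.319 and -0.47 ± 0.46 (SE, n = 6 and 4). The brightest read 4.62 on IMO + FC 1 and 5.24 on FC 2, against 7.952 to 8.161 on the other conditioned arrays and 8.13, 8.525, 8.502 and 8.58 on HC arrays. In these genes the size of the difference depended on the probe.

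Tsc22d3, which encodes the glucocorticoid-induced leucine zipper and is a standard reporter of corticosteroid action, was the gene of the glucocorticoid-induced list whose brightest probe had no overlap between groups. The promoter shown here is the one of its 3 listed start sites whose 300 bases hold a glucocorticoid receptor half-site, searched as AGAACA or its reverse complement TGTTCT, with the match in capitals. It is given 5′ to 3′ on the gene's strand from RefSeq (GRCm38.p6), chrX:140600473-140600772, minus strand.
Tsc22d3: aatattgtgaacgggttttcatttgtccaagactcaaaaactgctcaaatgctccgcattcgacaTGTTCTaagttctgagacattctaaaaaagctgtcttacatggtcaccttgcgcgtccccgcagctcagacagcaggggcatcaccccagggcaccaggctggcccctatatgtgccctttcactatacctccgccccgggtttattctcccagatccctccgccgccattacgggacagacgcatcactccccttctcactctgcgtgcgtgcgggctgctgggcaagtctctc
A half-site of this kind stands in 19% of the 32851 promoters of the table, so the match is a description only. The other 2 Tsc22d3 promoters and the single Fkbp5 promoter hold 0 half-sites in their windows.

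The bright Tsc22d3 probe read 10.13, 10.19, 10.28 and 10.32 on the IMO + FC arrays and 9.986 and 10.28 on the FC arrays, against 9.674, 9.779, 9.868 and 9.968 on the HC arrays. All 6 conditioned arrays were above all 4 HC arrays, though FC 2 exceeded HC 4 by little. The difference was 0.38 ± 0.159 (SE, n = 6 and 4), which is 1.30-fold, with an exact two-sided permutation p of 0.00952 and a limma adjusted p of 0.999. The dimmer probe read 7.137, 6.246, 6.917 and 6.619 on the IMO + FC arrays and 6.001 and 5.402 on the FC arrays, against 5.437, 4.96, 4.566 and 4.756 on the HC arrays. There the IMO + FC arrays stood clear of HC and FC 4 lay just under HC 1, though only 2 of the 4 HC arrays detected the probe. The difference was 1.46 ± 0.33 (SE, n = 6 and 4). Without IMO + FC 1 and FC 2 the values were 0.44 and 1.41, but with all 12 arrays the bright probe gave -0.57.

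Fkbp5, which encodes a cochaperone that dampens the glucocorticoid receptor, read 7.482, 7.858, 8.144 and 7.686 on IMO + FC arrays and 8.191 and 7.667 on FC arrays, against 7.579, 7.52, 7.225 and 6.932 on HC arrays. IMO + FC 1 was the only conditioned array under an HC array. The difference was 0.52 ± 0.212 (SE, n = 6 and 4), or 1.44-fold, with an exact permutation p of 0.0286. Like Tsc22d3 it gave a negative value, -0.26, with all 12 arrays.

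**Figure D2:**
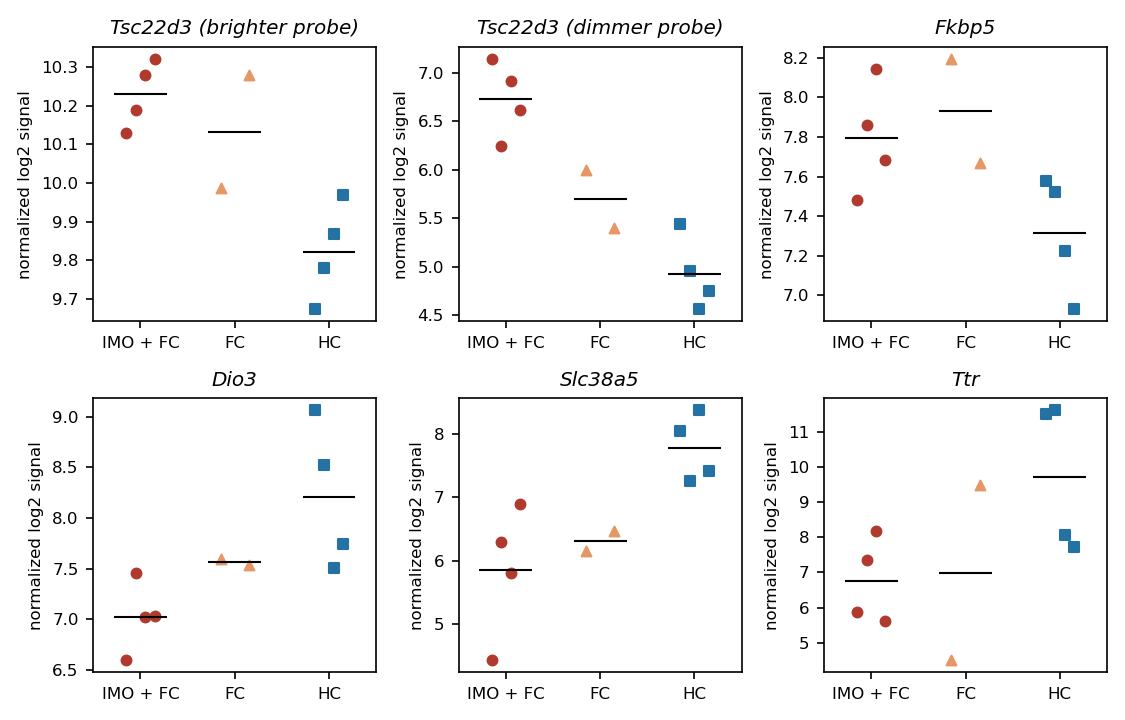
Normalized log2 signal (vertical axis, a separate scale in each panel) of 6 probes on the 4 IMO + FC (circles), 2 FC (triangles) and 4 HC (squares) arrays, with group means as lines. The bright Tsc22d3 probe and Slc38a5 show no overlap between conditioned and HC arrays, while Ttr spans from 4.514 to 11.6 with overlapping groups.

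The wider list of 43 tested glucocorticoid-induced genes had 31 members above 0 and 12 below, with 0 passing the test in either direction. Its median difference was 0.11, beside -0.017 over all 11585 genes, of which 5478 (47.3%) were above 0. Among the 35 gene lists, those of blood cells (0.27) and the endocannabinoid system (0.13) had higher medians. The median of the glucocorticoid-induced list was 0.063 for IMO + FC and 0.26 for FC against the shared HC arrays. Without IMO + FC 1 and FC 2 the median was 0.15, and 28 of 42 were above 0. It was -0.19 with all 12 arrays and positive under every other setting tried. Mean deviations of the list lay between -0.08 and 0.21 on conditioned arrays, against 0.035, 0.033, -0.15 and -0.27 on HC 1 to 4, so the groups overlapped.

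Members of the list did not share one size. The glycosyltransferase gene Galnt15 (0.78 ± 0.423) and the lipid droplet gene Plin4 (0.65 ± 0.395) had the largest positive values. Other well-known targets had values on the other side: Sgk1, a kinase that controls ion channels, gave -0.32 ± 0.31, the clock gene Per1 -0.20 ± 0.224, and the MAP kinase phosphatase Dusp1 -0.21 ± 0.245. Txnip, an inhibitor of thioredoxin, gave -0.53 ± 0.324, and Ddit4, an inhibitor of mTOR, -0.24 ± 0.163 (SE, n = 6 and 4 throughout). The 3 tested Per1 probes gave -0.20, -0.75 and 0.38.

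Genes that handle the hormone itself formed a list of 14 tested genes with 8 above 0 and a median of 0.011. Hsd11b1, the enzyme that regenerates active corticosterone inside cells, ran from 5.259 to 7.077 on conditioned arrays with a median of 6.266, against 7.689, 7.245, 6.356 and 7.191 on HC arrays. Its difference was -0.92 ± 0.353 (SE, n = 6 and 4), and only HC 3 lay within the conditioned range. Nr3c1, the glucocorticoid receptor, gave -0.41 ± 0.235, and Fkbp4, a cochaperone that helps the receptor move to the nucleus, gave 0.41 ± 0.202.

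**Figure D3:**
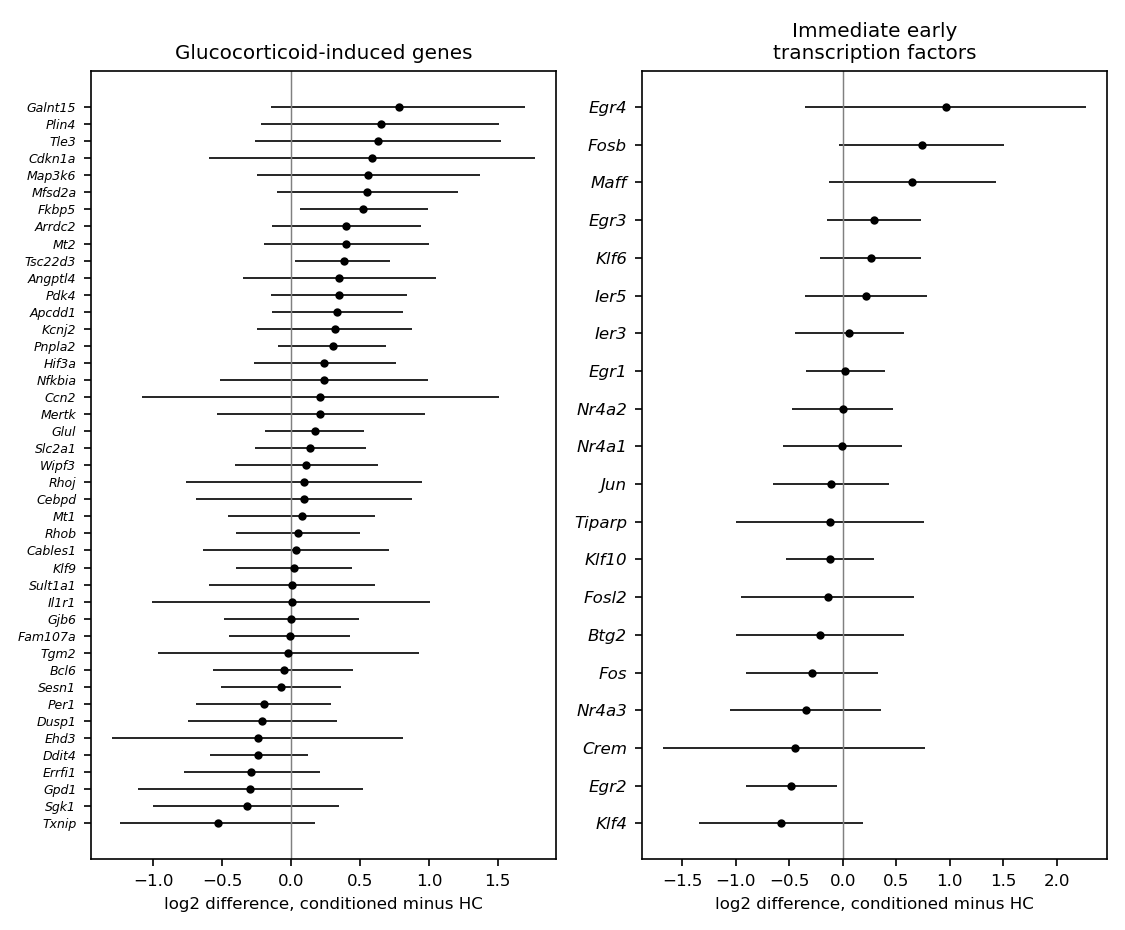
Difference in log2 signal, conditioned minus HC, with its 95% limma interval (bars), for the 43 tested glucocorticoid-induced genes (left) and the 20 tested immediate early transcription factors (right), 1 row a gene. In the left panel 31 points lie above 0 and in the right panel 9, and none passed the adjusted threshold.

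Immediate early transcription factors showed no common direction 2 h after conditioning. Of 20 tested genes 9 were above 0 and 11 below, the median was -0.059, and 0 passed the test. Fos, the most used marker of recent activity, read 6.24, 5.81, 5.555 and 6.658 on IMO + FC arrays and 5.789 and 5.565 on FC arrays, against 6.057, 5.815, 6.917 and 6.113 on HC arrays. The groups overlapped throughout, at -0.29 ± 0.281 (SE, n = 6 and 4), with a 95% interval from -0.90 to 0.33. Egr1 was among the brightest genes described, at 11.48 to 11.73 on conditioned arrays with a median of 11.63, against 11.88, 11.34, 11.67 and 11.47 on HC arrays, a difference of 0.024 ± 0.168 (SE, n = 6 and 4). Its 95% interval ran from -0.34 to 0.39, so the arrays overlapped around one common level.

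Relatives of these factors differed among themselves. Egr2 read 7.905 to 8.482 on conditioned arrays with a median of 8.221, against 8.575, 8.342, 9.087 and 8.694 on HC arrays, and gave -0.48 ± 0.195. Egr3 gave 0.29 ± 0.201 and Nr4a1 -0.0077 ± 0.255. Fosb, whose products accumulate with repeated activity, gave 0.74 ± 0.352 and Maff 0.65 ± 0.358, while Klf4 gave -0.58 ± 0.349, resting in part on IMO + FC 1, and -0.22 without IMO + FC 1 and FC 2 (SE, n = 6 and 4 throughout). Npas4 had no tested probe.

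Arc, whose product trims AMPA receptors at synapses, was highest on IMO + FC 1. It read 9.201 on IMO + FC 1 and 6.895, 7.084 and 6.604 on the other IMO + FC arrays, with 7.062 and 6.181 on FC arrays, against 7.801, 6.636, 6.457 and 7.312 on HC arrays. The difference was 0.12 ± 0.511 (SE, n = 6 and 4), and leaving out 1 array gave -0.28 to 0.37, negative without IMO + FC 1, without HC 2 (-0.019) and without HC 3 (-0.078). Bdnf, a growth factor for synapses, ran from 4.58 (IMO + FC 1) to 7.021 (FC 2), against 6.946, 6.44, 5.738 and 5.497 on HC arrays. Its difference was -0.14 ± 0.447, and 0.15 without IMO + FC 1, while its other 2 tested probes gave 0.60 ± 0.256 and 0.48 ± 0.438 (SE, n = 6 and 4). The Bdnf probes thus did not give one direction. The 30 tested activity-induced effectors had 18 members above 0 and a median of 0.095, or -0.0087 without IMO + FC 1 and FC 2; examples were Mfsd2a (0.55 ± 0.299) and Inhba (0.75 ± 0.45) above 0 and Sik1 (-0.57 ± 0.341) below.

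Of the nociceptin system, Oprl1 has 3 tested probes that disagreed. The brightest read 6.496, 7.515, 7.783 and 7.166 on IMO + FC arrays and 7.718 and 7.351 on FC arrays, against 8.049, 8.179, 7.487 and 7.448 on HC arrays, a difference of -0.45 ± 0.276 (SE, n = 6 and 4) with overlapping groups. The other probes gave 0.48 ± 0.356 and -0.034 ± 0.447. Pnoc, the precursor of nociceptin, gave -0.26 ± 0.387, or 0.18 without IMO + FC 1 and FC 2. The enkephalin precursor Penk gave 0.32 ± 0.439 and the dynorphin precursor Pdyn -0.084 ± 0.197. Of the 8 tested genes of the opioid and nociceptin list 2 were above 0 and 6 below, with a median of -0.09. The list had 4 of 8 above 0 and a median of -0.013 without IMO + FC 1 and FC 2.

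Tac2, the precursor of neurokinin B, read 6.678, 5.93, 6.533 and 6.372 on IMO + FC arrays and 6.572 and 4.73 on FC arrays, against 5.776, 5.408, 4.722 and 5.392 on HC arrays. All conditioned arrays but FC 4 were above all HC arrays, and the difference was 0.81 ± 0.373 (SE, n = 6 and 4), with an exact permutation p of 0.0857. It was 1.05 for IMO + FC and 0.33 for FC, and 0.57 without IMO + FC 1 and FC 2. The dimmer Tac2 probe gave 0.26 ± 0.241 (SE, n = 6 and 4). Crh, corticotropin-releasing hormone, was near background, detected on 3 of 6 conditioned and 2 of 4 HC arrays, and gave -0.0047 ± 0.385. The receptors of neuropeptide Y tested here differed in sign, with Npy1r at 0.66 ± 0.352 and Npy2r at -0.72 ± 0.28. Without IMO + FC 1 and FC 2 these receptors gave 0.38 and -0.44. The neuropeptide list was split evenly, 14 of 27 above 0 with a median of 0.00057, but 9 of 26 with -0.093 without IMO + FC 1 and FC 2.

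Transmitter receptors and channels gave medians of 0.026 for 19 GABA genes, -0.048 for 33 glutamate receptor and scaffold genes and 0.086 for 44 potassium and sodium channels. The median over all genes was -0.017. Kcnj6, which encodes the GIRK2 channel opened by opioid and nociceptin receptors, read 9.074, 8.552, 7.688 and 7.646 on IMO + FC arrays and 8.978 and 7.915 on FC arrays, against 7.377, 7.45, 7.63 and 7.479 on HC arrays. The groups did not overlap, although IMO + FC 3 and IMO + FC 4 were just above HC 3, and the difference was 0.82 ± 0.311 (SE, n = 6 and 4). Without IMO + FC 1 and FC 2 it was 0.46. The presynaptic glutamate receptor Grm4 (1.08 ± 0.466), the postsynaptic scaffold Shank1 (0.86 ± 0.386) and the sodium channel Scn8a (0.58 ± 0.265) were also above 0 with overlapping groups. Below 0 were the potassium channel Kcna4 (-1.09 ± 0.512) and the GABA receptor subunit Gabra3 (-0.49 ± 0.338). Without IMO + FC 1 and FC 2 the values were 0.40 for Shank1, 0.37 for Scn8a and -0.46 for Kcna4, and Gabra3 gave -0.24 without IMO + FC 1. The interneuron calcium buffer Calb1 gave 0.52 ± 0.322, the serotonin receptor Htr5a 0.55 ± 0.234 and Mgll, which breaks down an endocannabinoid, 0.30 ± 0.226 (SE, n = 6 and 4 throughout). Calb1 was detected on 5 of the 6 conditioned but only 1 of the 4 HC arrays, so a higher conditioned level is partly built in. Against the shared HC arrays Htr5a gave 0.78 for IMO + FC and 0.078 for FC, and Mgll gave 0.14 without IMO + FC 1 and FC 2.

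**Figure D4:**
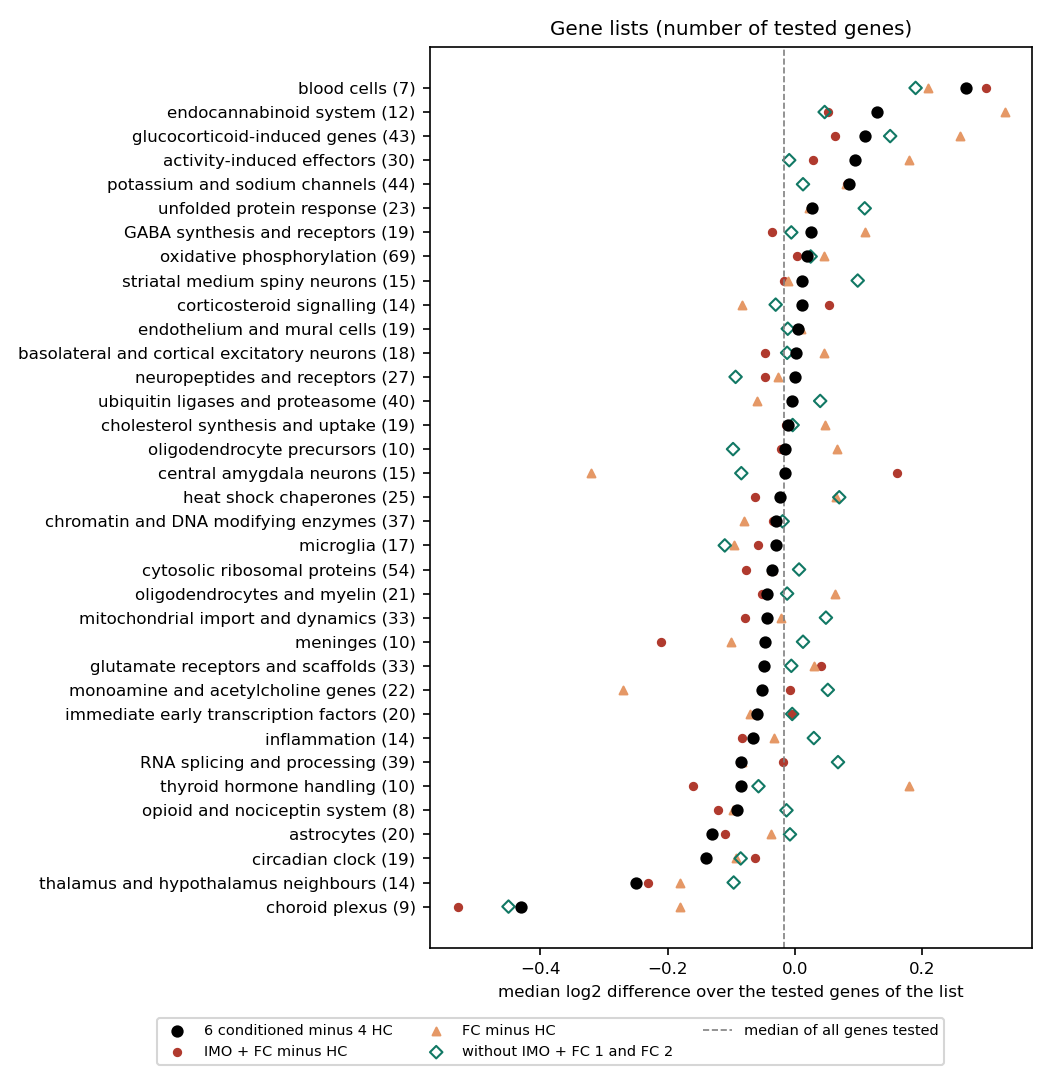
Median log2 difference over the tested genes of 35 gene lists (rows, number of tested genes in brackets), for the 6 conditioned arrays (filled black), for IMO + FC (red) and FC (orange triangles) against the shared HC arrays, and without IMO + FC 1 and FC 2 (open diamonds). The dashed line is the median of all genes, -0.017, and the filled black points run from -0.43 for choroid plexus to 0.27 for blood cells.

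Markers of tissue outside the amygdala differed between single arrays. Ttr, the transthyretin of the choroid plexus, read 5.889, 7.342, 8.189 and 5.633 on IMO + FC arrays and 4.514 and 9.478 on FC arrays, against 11.51, 11.6, 8.053 and 7.722 on HC arrays. HC 1 and HC 2 were far above all others, and the groups overlapped. The difference of -2.88 ± 1.05 (SE, n = 6 and 4), with an exact permutation p of 0.0667, was the largest of any gene's brightest probe. Without IMO + FC 1 and FC 2 the Ttr difference was -2.03. The water channel Aqp1 gave -1.95 ± 0.779 with overlapping groups and an exact permutation p of 0.124. It read 8.11, 9.156, 6.597 and 4.384 on HC arrays, so HC 4 lay under every conditioned array (4.477 to 6.613). Aqp1 was detected on 2 of the 6 conditioned and 3 of the 4 HC arrays. Sostdc1 gave -0.54 ± 0.356. Of 24 choroid plexus markers 9 had a tested probe, 7 of them below 0. Their mean deviation was -0.55 to 0.22 on conditioned arrays, against 0.8, 1.3, 0.17 and -0.55 on HC 1 to 4.

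Dio3, the deiodinase that inactivates thyroid hormone, was highest on HC 1 and HC 2, the arrays high in Ttr. It read 6.599, 7.452, 7.019 and 7.029 on IMO + FC arrays and 7.597 and 7.537 on FC arrays, against 9.06, 8.527, 7.504 and 7.744 on HC arrays. HC 3 lay within the conditioned range. On FC 2 and FC 4 Ttr differed widely (4.514 and 9.478), while Dio3 did not (7.597 and 7.537). The part of choroid plexus RNA in this or other results was not tested. For Dio3 the difference was -1.0 ± 0.321 (SE, n = 6 and 4), or 2.0-fold lower in conditioned arrays, with an exact permutation p of 0.0286.

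Other cell types gave smaller or mixed values. In whole punches fewer cells of a type and less RNA per cell cannot be told apart. The hemoglobin genes Hba-a1 (0.60 ± 0.25) and Hbb-b2 (0.47 ± 0.269) were above 0, with 6 of 7 tested blood genes above 0 and a median of 0.27, and the highest mean deviation of that list, 0.33, was on IMO + FC 1. The meningeal genes Igf2 (-0.99 ± 0.342) and Col1a2 (-0.89 ± 0.36) were below 0, but the list of 10 was split 5 and 5. Of 20 astrocyte genes 13 were below 0, with a median of -0.13, or -0.0075 without IMO + FC 1 and FC 2, and HC 4 had the highest mean deviation at 0.48. Thalamic and hypothalamic genes had 10 of 14 below 0 with a median of -0.25. That median was -0.12 at its nearest to 0 when 1 array was left out, and -0.096 without IMO + FC 1 and FC 2, where 5 of 14 were above 0. Examples were Lef1 at -0.52 ± 0.234 and Nkx2-1, a factor of hypothalamic development, at 0.71 ± 0.464, or 0.28 without HC 4. Prkcd, which was in both this list and that of the central amygdala, gave -0.76 ± 0.451. Prkcd and Lef1 were each detected on 3 of the 6 conditioned and all 4 HC arrays, so a lower conditioned level is partly built in. The central amygdala list of 15 had 6 genes above 0 and 9 below, with a median of -0.015.

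In glia, Enpp6, which marks newly forming oligodendrocytes, ran from 4.647 to 7.543 on conditioned arrays with a median of 6.426, against 7.817, 8.261, 7.192 and 7.715 on HC arrays. The difference was -1.64 ± 0.546 (SE, n = 6 and 4), and IMO + FC 1 was the only conditioned array above an HC array. Pdgfra, the marker of oligodendrocyte precursors, gave -0.37 ± 0.179, and Lhfpl3 of the same list 0.46 ± 0.462. The 21 tested myelin and oligodendrocyte genes had 8 members above 0 and a median of -0.044. Among those above 0 were the transcription factors of the lineage Myrf (0.74 ± 0.475) and Sox10 (0.49 ± 0.26). Myrf was detected on 4 of the 6 conditioned but only 1 of the 4 HC arrays, so a higher conditioned level is partly built in. It read 7.138 on IMO + FC 1 and 6.251 on FC 4. The other conditioned arrays ran from 4.498 to 5.692 and the HC arrays from 4.439 to 5.285. The microglial genes Gpr34 (-0.51 ± 0.215) and Tmem119 (-0.55 ± 0.269) were below 0, while C1qc, a chain of complement C1q, gave 0.70 ± 0.412 (SE, n = 6 and 4 throughout). Sox10 gave 0.27 and C1qc 0.29 without IMO + FC 1 and FC 2, Myrf gave 0.44 without IMO + FC 1, and Lhfpl3 gave 0.0039 without HC 2. The microglial list had 7 of 17 above 0 and a median of -0.03.

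The 2 kinds of conditioned arrays were also set against HC one by one. At an unadjusted p under 0.05 there were 735 probes (3.16%) for IMO + FC against HC and 802 (3.45%) for FC against HC, and IMO + FC against FC gave 805 (3.46%). In each of the 3 comparisons 0 probes had a limma adjusted p under 0.05. The first 2 share the HC arrays, so likeness between them is built in. Among named genes Msto1 (1.70 for IMO + FC, 0.57 for FC) and the dimmer Tsc22d3 probe (1.80 and 0.77) were larger in IMO + FC, and Rbak (0.80 and 1.28) was larger in FC. The differences between the 2 kinds, IMO + FC minus FC, were 1.13 for Msto1, 1.03 for the Tsc22d3 probe and -0.48 for Rbak, none of which passed the test. Among the 24 genes the smallest gaps were for Yeats2 (-1.0 and -1.02) and Snapc4 (-0.99 and -0.97). Both genes were detected on only 3 of the 6 conditioned arrays, so these conditioned values lay near background.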

How the data were processed

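Signals of 45281 Illumina mouse bead-array probes were used. The deposited table gives, per the file headers, a non-normalized signal intensity and a detection p-value for every probe and array, and 0 value columns were left unused. A table of normalized intensity deposited by the authors (method not given in the sources used here) served only as an alternative. Total RNA was purified with a Qiagen RNeasy kit and biotin-labelled with an Ambion MessageAmp kit, per the labels' protocols.

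limma's neqc corrected the background of the 10 arrays by their detection p-values (offset 16) and normalized them by quantiles on the log2 scale. Probes detected at p under 0.05 on at least 4 arrays were tested with limma (lmFit, eBayes; 8 residual degrees of freedom) and Benjamini-Hochberg adjustment. The contrasts by kind of conditioning came from a fit of 3 groups (7 residual degrees of freedom). Symbols come from GEO's platform annotation: 34885 probes have 1, 18 several and 10378 none, and only the first kind is named. Exact two-sided permutation tests cover all 210 arrangements and are not adjusted. Where one group detected a probe on 0 arrays and the other on all, only a bound is given. The fit was tested on simulated data.

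Named genes are the 12 per direction of smallest p by brightest probe, up to 6 further per direction over all probes, and a fixed set. That set held stress, activity, opioid and other peptide genes, together with Msto1, Tomm6, Dio3, Ttr and Aqp1. Up to 2 genes per direction were added from each of 35 lists, which hold 1038 genes (799 tested). Predicted transcripts were passed over. Galnt15, Plin4, Egr3 and Sostdc1 fall outside this and were chosen after their values were seen. The members, lists and tests were chosen with earlier results of these data known. List results are counts and medians, with no test. Arrays with the same number did not deviate together (correlations -0.14 to 0.19), and no slide is named in the files, so no slide block was fitted. Versions were R 4.3.3, limma 3.58.1, Python 3.11.15, SciPy 1.17.1, pandas 2.3.3 and matplotlib 3.10.9.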

Additional observations from a re-analysis of the deposited data

Results flagged for a closer look

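Among 220 groups of values looked at (conditioned or HC arrays of the probes named), 11 had 1 array standing apart from the others by Dixon's criterion at 95%, which chance meets in about 1 in 20 groups.

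On HC arrays, HC 4 stood apart as the highest for Ccdc71 (5.342) and Glmn (7.318), and HC 1 for Psmd3 (5.524), a proteasome subunit whose conditioned arrays averaged 5.956. HC 3 stood apart as the lowest for Ctnnal1 (5.594), Ppard (5.572) and the dimmer probe of the ubiquitin ligase gene Rnf41 (4.759, against 6.811, 7.14 and 7.134 on the other HC arrays). Among conditioned arrays, IMO + FC 1 stood apart as the highest for Arc (9.201) and the lowest for Klf4 (4.343). The lowest conditioned arrays that stood apart were FC 2 for Pisd-ps2 (5.558), FC 4 for the dimmer probe of Ube2f (5.06) and IMO + FC 4 for Tmem119 (6.206).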

How the results depend on the processing

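Conditioned against HC gave 0 probes at an adjusted p under 0.05 in each of 24 other settings, with lowest limma adjusted p-values of 0.0712 to 1. Leaving out each array in turn gave 0 calls in either direction and 633 to 1044 probes at an unadjusted p under 0.05. At an adjusted p under 0.1 only the fit without HC 3 gave 1 probe, the dimmer one of Rnf41. Against 785 probes at an unadjusted p under 0.05 there were 1427 with no detection filter, 361 with the strict filter, 304 with all 12 arrays, 1300 with array weights, 398 with 1 probe per gene and 1338 without IMO + FC 1 and FC 2, a setting chosen after seeing the data. Higher against lower probes split 332 to 453, but 238 to 560 with median scaling, 41 to 263 with all 12 arrays, 207 to 154 with the strict filter and 735 to 603 without IMO + FC 1 and FC 2. The arrays' numbers as a replicate block gave 1119 probes at an unadjusted p under 0.05 and 0 calls; the arrays share only a number. Among the 24 genes of smallest p, 23 kept their direction in every setting. They were picked on the same arrays that most settings refit, so a kept direction is largely built in and gives no support.

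Directions turned for these genes. With all 12 arrays, which moved the median of all probes to -0.14: Tmc7 -0.087, Tsc22d3 -0.57, Fkbp5 -0.26, Egr1 -0.22, Nr4a1 0.47, Penk -0.44, Tomm6 -0.25, Fosb -0.02, Mfsd2a -0.29, Fkbp4 -0.24, Igf2 0.022, Scn8a -0.14, Mgll -0.055, Sox10 -0.023 and Lhfpl3 -0.17. With array weights: Arc -0.19, Pnoc 0.0028, Pdyn 0.053 and Crh 0.42. With equal weight of FC and IMO + FC: Arc -0.018 and Bdnf 0.071. With the detected share as a covariate: Arc -0.21, Bdnf 0.057 and Crh 0.21. With median scaling: Egr1 -0.017 and Crh 0.094. With cyclic loess: Bdnf 0.00095 and Crh 0.15. With the replicate block: Crh 0.01 and Nr4a1 0.032. Without IMO + FC 1 and FC 2: Arc -0.36, Pdyn 0.00074, Nr4a1 0.018, Pnoc 0.18 and Crh 0.42. The causes were not tested.

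Leaving out 1 array at a time, the range crossed 0 for Arc -0.28 to 0.37, Bdnf -0.35 to 0.15, Crh -0.19 to 0.16, Egr1 -0.06 to 0.12, Nr4a1 -0.12 to 0.14, Pdyn -0.22 to 0.0085 and Penk -0.17 to 0.55. List medians of the glucocorticoid-induced genes ranged from -0.19 to 0.2 over all settings and those of the choroid plexus genes from -0.71 to 0.17. The median interval of 0.621 log2 units to either side limits what these arrays could show.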

Other observations

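Genes of protein turnover, RNA processing and chromatin were examined as well, and 0 of them passed the test. In the list of 39 splicing and RNA processing genes 16 were above 0 and 23 below, with a median of -0.084, or 0.068 without IMO + FC 1 and FC 2. Clk4, a kinase that phosphorylates splicing factors, read 8.93, 8.735, 8.884 and 8.837 on IMO + FC arrays and 8.423 and 8.962 on FC arrays, against 9.523, 9.181, 9.316 and 9.321 on HC arrays. Its groups did not overlap, at -0.54 ± 0.174 (SE, n = 6 and 4), while the splicing factor Srsf11 gave 0.41 ± 0.216. The proteasome core subunit Psma4 ran from 8.047 to 8.644 on conditioned arrays, against 8.864, 9.131, 8.712 and 8.695 on HC arrays, also without overlap, at -0.45 ± 0.181. Psmd3 of the proteasome's regulatory particle gave 1.08 ± 0.426, in a list of 40 with a median of -0.0049.

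The histone demethylase Kdm4a ran from 4.647 to 6.748 on conditioned arrays, against 6.559, 6.519, 6.153 and 6.485 on HC arrays. FC 2 was above every HC array and the other conditioned arrays were below all of them, and the difference was -1.23 ± 0.383 (SE, n = 6 and 4), or -1.54 without IMO + FC 1 and FC 2. Its relative Kdm3a gave -0.68 ± 0.252, and the 37 chromatin genes had a median of -0.029. Of the unfolded protein response, Xbp1, its main transcription factor, ran from 8.754 to 9.503 on conditioned arrays, against 8.502, 8.624, 8.669 and 8.707 on HC arrays. Its groups did not overlap, at 0.42 ± 0.201, or 0.21 without IMO + FC 1 and FC 2, and Chac1 gave 0.87 ± 0.378 in a list of 23 with a median of 0.027. Among chaperone genes Dnajb5 gave 0.42 ± 0.203 and Bag3 -0.54 ± 0.267. The 19 clock genes had 14 members below 0 and a median of -0.14, the 69 genes of oxidative phosphorylation a median of 0.02, and the 54 ribosomal protein genes a median of -0.035, with Rpl4 at -0.61 ± 0.251. Against the shared HC arrays Rpl4 gave -0.88 for IMO + FC and -0.061 for FC. The mitochondrial import motor gene Timm44 gave -0.33 ± 0.171 in a list of 33 with a median of -0.044. No explanation of these values was tested.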
